A study of Mus musculus with 24 samples.

Results

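The class IIa histone deacetylases and the MEF2 transcription factors were followed through 7 gene symbols, Hdac4, Hdac5, Hdac7, Hdac9, Mef2a, Mef2c and Mef2d, in mouse hind-limb muscle. The members were chosen by gene symbol, and all probes annotated to a symbol were taken. The family was proposed with earlier results of these same arrays in view, so the p-values below describe the fit over the whole array and are not independent evidence. Of the 7 symbols 6 had at least 1 annotated probe, of 19057 symbols in all, and Mef2a was not analysed here. The 6 symbols had 16 of the 45281 probes on the array. Of these 16 probes, 11 were kept because they were detected (detection p under 0.05) on at least 6 arrays, as were 21788 probes in all. The other 5, which were 1 Hdac4 probe, 3 Hdac9 probes and 1 Mef2c probe, were detected on 0 arrays.

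RNA came from the gastrocnemius-soleus complex of female mice aged 5 weeks and was measured on 24 Illumina bead arrays, 6 in each of 4 groups. TG run mice carried the alpha7BX2 integrin transgene and ran downhill once, at a slope of 20 degrees and 17 m/min for 40 min, after a warm-up of 2 min that started at 10 m/min. TG rest mice carried the same transgene and were not exercised. WT run mice were wild type and made the same run, and WT rest mice were wild type and unexercised. Muscle was taken 3 h after the run. The sources used here do not name the promoter that drives the transgene or the number of founder lines. Each array is a separate replicate in the labels, and the number of arrays limits the precision of every value.

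Class IIa HDACs are corepressors that bind MEF2 proteins on DNA and keep MEF2 target genes silent. When calcium- or AMP-dependent kinases phosphorylate them they bind 14-3-3 proteins and leave the nucleus, which frees MEF2. In skeletal muscle this switch is known for its role in slow-fibre genes, in fuel metabolism genes after contraction and in the response to denervation. The arrays measured RNA, and neither phosphorylation nor the location of the proteins in the cell was measured.

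The tissue label fitted its markers: all 12 fast-fibre and general muscle genes were detected on all 24 arrays, with array means between 14.75 and 14.93 on the log2 scale. Median intensity per array lay between 105.2 and 137.9. The arrays differed widely in cells other than muscle fibres. Of 20 lymphocyte markers 14 were measured and 3 were detected on all arrays, and their mean split the arrays at its widest gap into 11 high and 13 low arrays. The high arrays were 4 of 6 in TG run, 2 of 6 in TG rest, 2 of 6 in WT run and 3 of 6 in WT rest. The lymphocyte mean ran between 5.28 and 10.3 in TG run, between 5.34 and 9.17 in TG rest, between 5.31 and 9.96 in WT run and between 5.29 and 9.79 in WT rest. Mt1, a metal-binding stress protein, rose by 1.34 (SE 0.155, limma adjusted p = 0.000215) with the run, averaged over the genotypes. It was chosen as the largest known run response, with earlier results of these arrays in view. Its rise is therefore no independent check of the run label.

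Mef2c, a MADS-box factor of muscle, heart, neurons and B lymphocytes, gave the 1 call among the 11 probes in each genotype comparison, and that call came from 1 of its 4 kept probes. The probe ILMN_1220270 is annotated to a cDNA clone record, while the other Mef2c probes are annotated to a RefSeq transcript of the gene. This probe passed the filter on low signals only through the TG arrays, in which it is high, so its place among the 11 kept probes depends on the difference itself. Without that filter it was still called, with adjusted p-values of 0.0269 at rest, 0.00873 after the run and 7.2e-05 averaged. It was detected on 6 of 6 TG run arrays, 5 of 6 TG rest arrays, 0 of 6 WT run arrays and 0 of 6 WT rest arrays. Its log2 signal was 6.83 at the lowest, 7.41 at the median and 8.35 at the highest in TG run, and 4.55, 7.70 and 8.08 in TG rest. In WT run it was 4.60, 4.71 and 5.08, and in WT rest 4.47, 4.56 and 4.79. Every TG run array therefore stood above every WT run array, and 5 of the 6 TG rest arrays stood above every WT rest array. The exception was replicate 8 of TG rest, at 4.55 with a detection p of 0.448.

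For the same Mef2c probe, the difference averaged over exercise states was 2.63 (TG minus WT, SE 0.291, 95% interval 2.03 to 3.23, limma adjusted p = 1.62e-05). After the run, mean signals of 7.52 in TG run and 4.75 in WT run differed by 2.77 (SE 0.411, adjusted p = 0.00247). Because no WT run array detected the probe, the difference was given as a bound, at least 5.27-fold higher in TG run. At rest, means of 7.10 in TG rest and 4.61 in WT rest differed by 2.49 (SE 0.411, adjusted p = 0.00917), or at least 4.21-fold higher in TG rest. Each bound sets the mean of the TG arrays against the lowest detected signal on the WT arrays or the probe's own value there, whichever was higher. The bounds carry no sampling error, and the TG rest mean includes replicate 8, which did not detect the probe. The fitted log2 differences had 95% intervals of 1.92 to 3.62 after the run and 1.64 to 3.34 at rest. With the replicate numbers of the labels as a block, the difference was 2.52 at rest (adjusted p = 0.244) and 2.90 after the run (adjusted p = 0.146), and neither was called. After the run it was called in neither the lymphocyte-low (3.12, adjusted p = 0.738) nor the lymphocyte-high arrays (2.67, adjusted p = 0.26). With an offset of 50 in place of 16 the averaged difference was 1.75 and was called, so the size of these fitted differences depends on the offset. In these bulk samples fewer cells of a type and less RNA per cell cannot be told apart. The averaged difference was 2.77 in the lymphocyte-low arrays (adjusted p = 0.0869) and 2.68 in the lymphocyte-high arrays (adjusted p = 0.0149). It was about as large in both sets.

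Over all 21788 kept probes, limma called 49 in the averaged genotype comparison (0.225%), 17 at rest (0.078%) and 19 after the run (0.0872%). With the replicate block these counts were 8, 3 and 3, and with the slow-fibre covariate 89, 23 and 32. The run did not change the Mef2c probe detectably: run minus rest was 0.42 in TG (SE 0.411, 95% interval -0.43 to 1.27) and 0.14 in WT (SE 0.411). In the order of group means TG run and TG rest came first and did not differ beyond their spread, and WT run and WT rest followed with no detection.

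**Figure D1:**
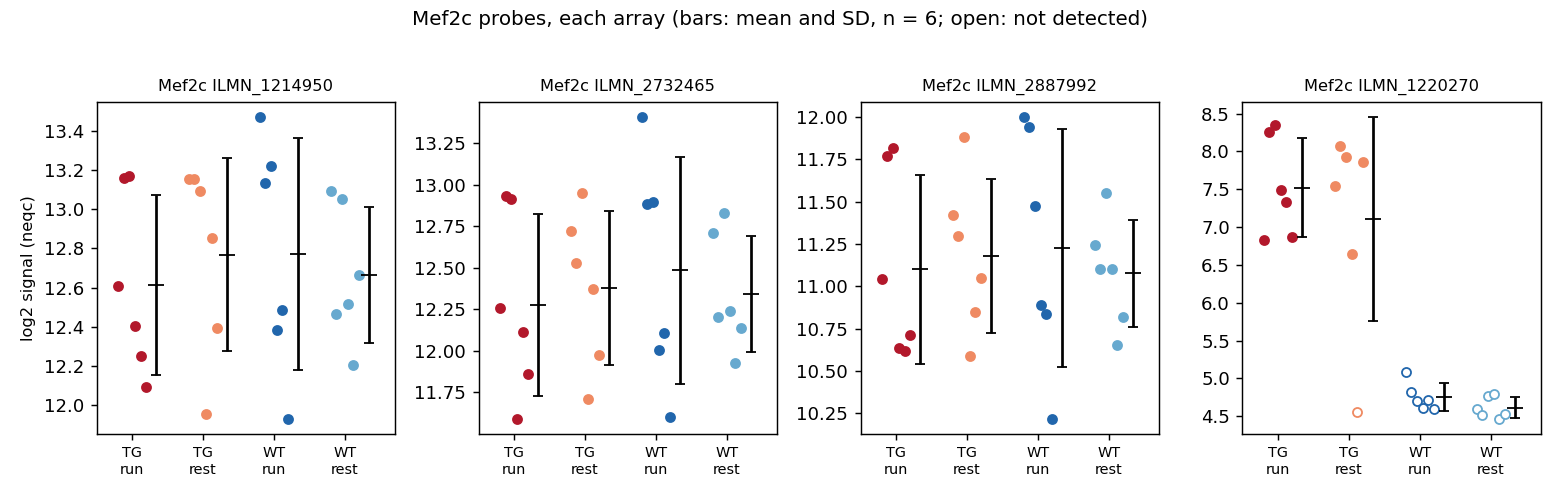
Log2 signal of the 4 kept Mef2c probes on each array, in TG run, TG rest, WT run and WT rest, with the mean and SD of 6 arrays beside the points and open circles for arrays that did not detect the probe. The ILMN_1220270 panel shows 11 detected TG arrays above all WT arrays and 1 TG rest array at 4.55, while the groups of the other 3 probes overlap.

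The other 3 kept Mef2c probes were detected on all 24 arrays and did not show the genotype difference. For ILMN_1214950 the lowest, median and highest signals were 12.09, 12.50 and 13.17 in TG run, 11.96, 12.97 and 13.15 in TG rest, 11.93, 12.81 and 13.47 in WT run and 12.21, 12.59 and 13.09 in WT rest. Its averaged genotype difference was -0.03 (95% interval -0.41 to 0.36). The other pair, ILMN_2732465 and ILMN_2887992, gave -0.09 (95% interval -0.51 to 0.33) and -0.01 (95% interval -0.43 to 0.41). All of their groups overlapped. These 3 probes varied together from array to array, with Pearson correlations of their deviations from the group means between 0.897 and 0.947 over 24 arrays. Their correlations with ILMN_1220270 lay between 0.342 and 0.496, as a description of arrays that share library and tissue composition. Neither the WT arrays nor replicate 8 of TG rest detected ILMN_1220270. These lower correlations thus include arrays at background and do not show that the probe varies apart where it is detected.

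Genes beside Mef2c on chromosome 13, in the RefSeq order of GRCm38.p6, did not differ by genotype in the same fit. The nearest measured genes on one side, Mblac2 and Cetn3, differed by -0.08 (SE 0.104) and 0.06 (SE 0.112) averaged over exercise states. On the other side, the 2 Tmem161b probes differed by 0.12 and -0.20 and Ccnh, a cyclin of the CDK-activating kinase, by 0.05. Of the 49 probes called in this comparison, 1 of 628 kept probes on chromosome 13 was called, the Mef2c probe itself. On chromosome 7 it was 19 of 1336, and on chromosome 8 it was 11 of 965. Where the clone-annotated probe lies relative to the exons of Mef2c was not analysed here.

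Replicate 8 of TG rest read as the other TG arrays did on a Gys1 probe. Gys1, muscle glycogen synthase on chromosome 7 and a listed target of HDAC4, has the probe ILMN_1251254, which was detected on all 6 arrays of both TG groups and on 0 arrays of both WT groups. On this probe replicate 8 read 8.08, against 4.41 to 4.80 on the WT rest arrays. On the Mef2b probe ILMN_1236577, described below, replicate 8 read 8.20, inside the TG rest range of 7.37 to 8.29. That was above the highest TG run array (7.94) and below the lowest WT rest and WT run arrays (8.24 and 8.25). As no WT array detected the Gys1 probe, its difference is given as a bound. It was at least 12.1-fold higher in TG rest than in WT rest (limma adjusted p = 1.52e-12). After the run it was at least 8.47-fold higher in TG run than in WT run (adjusted p = 2e-11). Like the Mef2c probe, it passed the filter on low signals only through the TG arrays, in which it is high. Without that filter the adjusted p-values were 7.82e-12 and 9.14e-11. It was named because it was called in these same arrays, so it is no independent check of replicate 8. The 2 other Gys1 probes differed by 0.03 (SE 0.207) and -0.13 (SE 0.178), so here too 1 probe of several carried the difference.

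Mef2d, the MEF2 member whose splice form is tied to muscle differentiation, had 1 probe, ILMN_2714918, close to the detection limit on several arrays. It was detected on 4 of 6 TG run, 6 of 6 TG rest, 5 of 6 WT run and 5 of 6 WT rest arrays. Its lowest, median and highest signals were 4.61, 5.32 and 5.77 in TG run, 5.38, 5.61 and 6.23 in TG rest, 4.97, 5.27 and 5.67 in WT run and 5.09, 5.56 and 5.98 in WT rest. All groups overlapped, and both run groups had lower medians than their rest groups. Run minus rest was -0.40 in TG (SE 0.195, limma adjusted p = 0.889) and -0.20 in WT (SE 0.195). The value in TG was -0.67 in the lymphocyte-low arrays and -0.04 in the lymphocyte-high arrays. The average, -0.30 (95% interval -0.58 to -0.01), was not called (adjusted p = 0.998). The genotype difference averaged 0.07 (95% interval -0.21 to 0.36).

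Mef2b, the divergent family member on chromosome 8, was not among the 7 symbols but stood in the list of MEF2 partners. Its probe ILMN_1236577 was the 1 listed partner or regulator called lower in TG, in the comparison averaged over exercise states. The signal lay between 7.41 and 7.94 in TG run, between 7.37 and 8.29 in TG rest, between 8.25 and 8.79 in WT run and between 8.24 and 8.85 in WT rest. All TG run arrays lay below all WT run arrays, and the rest groups overlapped slightly. Over all kept probes, 0.193% had groups that did not overlap after the run, in either direction. The Mef2b probe differed by -0.67 both at rest and after the run and was called in neither (limma adjusted p = 0.231 and 0.248). The averaged difference was -0.67 (SE 0.113, 0.629-fold, limma adjusted p = 0.0038). It was -0.50 in the lymphocyte-low arrays and -0.90 in the lymphocyte-high arrays, called in neither (adjusted p = 0.881 and 0.359). With the replicate block it was -0.55 and not called (adjusted p = 0.612). A second Mef2b probe, ILMN_3111575, differed by -0.07 (SE 0.121), and another was detected on 1 array.

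Hdac9, a class IIa deacetylase that in mouse muscle represses MEF2 genes and responds to innervation, had run differences of opposite sign in TG and WT, each with an unadjusted p under 0.05. The 3 brighter Mef2c probes also had opposite signs, with differences between -0.15 and 0.15. In the lymphocyte-high arrays their run difference in WT was negative, between -0.57 and -0.38. Their difference in run response there lay between 0.36 and 0.67, against -0.26 to -0.23 over all arrays. The Hdac9 probe ILMN_1242553 was detected on 3 of 6 TG run, 6 of 6 TG rest, 6 of 6 WT run and 3 of 6 WT rest arrays, so it lay close to background. The lowest, median and highest signals were 4.73, 5.00 and 5.53 in TG run and 5.18, 5.39 and 5.97 in TG rest. In WT run they were 5.31, 5.44 and 6.00, and in WT rest 4.89, 5.02 and 5.18. All 6 WT run arrays stood above all 6 WT rest arrays, while TG run and TG rest overlapped with TG run the lower.

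For Hdac9, run minus rest was -0.42 in TG (SE 0.147, limma adjusted p = 0.889) and 0.50 in WT (SE 0.147, adjusted p = 1). The difference between these responses was -0.93 (SE 0.208, 95% interval -1.36 to -0.50). It was not called over the 21788 probes (adjusted p = 0.935), and its adjusted p lay between 0.261 and 1 over 13 other settings. With an offset of 50 the difference was -0.50, and it was -0.92 in the lymphocyte-low and -0.93 in the lymphocyte-high arrays. The genotype difference was 0.43 at rest and -0.50 after the run (SE 0.147 each), and averaged -0.04. With the replicate block the difference at rest was 0.28. Averaging over genotypes or exercise states thus left a value near 0 for this probe. The 3 further Hdac9 probes were detected on no array (0 of 24 each).

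Hdac4, the class IIa member tied to the denervation response, had 1 kept probe, ILMN_1219682, detected on all 24 arrays. Its lowest, median and highest signals were 8.24, 8.61 and 9.14 in TG run, 8.10, 8.52 and 9.33 in TG rest, 8.31, 8.72 and 9.14 in WT run and 8.07, 8.34 and 8.92 in WT rest. The 4 groups overlapped widely. Run minus rest was 0.06 in TG (SE 0.194) and 0.35 in WT (SE 0.194, limma adjusted p = 1). With the replicate block the value in WT was -0.01. The 95% interval of the averaged run difference, -0.08 to 0.49, and that of the averaged genotype difference, -0.23 to 0.33, both held 0.

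Hdac5, a class IIa member that AMP-activated kinase and CaM kinases phosphorylate during contraction, had 3 kept probes and no call. Its RefSeq promoter window is shown because it is 1 of the 2 windows of the 7 genes that hold the MEF2 consensus, the other being that of Mef2a. The consensus searched was CTA, then 4 bases that are each A or T, then TAG, which reads the same on both strands. Windows run from 250 bases before to 50 bases after the gene start, and 183 of 32851 windows of all genes held a match (0.557%). Of the 13 windows of the 7 genes 2 did, and none was found in the windows of Hdac4, Hdac7, Hdac9, Mef2c or Mef2d. The match began 20 bases before the start in Hdac5 and 2 bases before it in Mef2a, and is in capitals in the sequences below, 5′ to 3′ from RefSeq (GRCm38.p6). The Hdac5 window is chr11:102230123-102230422 and the Mef2a window is chr7:67372809-67373108, both on the minus strand. A match is a description of these letters and not a measured binding site.
Hdac5: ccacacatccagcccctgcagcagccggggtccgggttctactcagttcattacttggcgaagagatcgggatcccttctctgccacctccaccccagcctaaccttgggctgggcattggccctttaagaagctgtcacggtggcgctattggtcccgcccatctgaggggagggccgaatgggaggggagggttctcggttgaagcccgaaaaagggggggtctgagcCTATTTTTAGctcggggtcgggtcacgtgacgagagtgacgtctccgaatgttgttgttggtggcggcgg
Mef2a: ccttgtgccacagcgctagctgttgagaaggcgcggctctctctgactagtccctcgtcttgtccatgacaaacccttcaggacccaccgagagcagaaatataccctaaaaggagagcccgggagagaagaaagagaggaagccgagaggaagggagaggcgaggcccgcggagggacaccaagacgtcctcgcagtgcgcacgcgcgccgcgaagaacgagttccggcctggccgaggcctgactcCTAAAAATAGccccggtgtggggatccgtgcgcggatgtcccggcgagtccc

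The brightest Hdac5 probe, ILMN_3112922, had lowest, median and highest signals of 9.43, 9.66 and 10.00 in TG run, 9.71, 9.89 and 10.04 in TG rest, 9.66, 9.75 and 9.99 in WT run and 9.64, 9.81 and 10.05 in WT rest. Run minus rest was -0.19 in TG (SE 0.103, adjusted p = 0.889) and -0.03 in WT (SE 0.103). The second probe, ILMN_2659160, gave -0.13 in TG and -0.03 in WT (SE 0.137 each). The third, ILMN_1213290, was detected on 23 arrays and gave -0.08 in TG and -0.38 in WT (SE 0.242 each). All 3 Hdac5 probes thus had negative run differences in both genotypes over all arrays, and none (0 of 3) was called. For ILMN_1213290 the difference in WT was -0.72 in the lymphocyte-low arrays and 0.06 in the lymphocyte-high arrays. Their averaged genotype differences were -0.01, 0.02 and 0.16, each with a 95% interval that held 0. The 2 brighter probes varied together over 24 arrays (Pearson 0.878 of deviations from group means), and the third followed them less closely (0.562 and 0.370).

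Hdac7, a class IIa member best known in endothelium and thymocytes, had 1 probe, ILMN_2768755, detected on all 24 arrays. Its lowest, median and highest signals were 8.10, 8.58 and 9.03 in TG run, 8.09, 8.27 and 8.70 in TG rest, 8.14, 8.46 and 8.82 in WT run and 8.05, 8.50 and 8.68 in WT rest. The groups overlapped. Run minus rest was 0.28 in TG (SE 0.159, adjusted p = 0.889) and 0.01 in WT (SE 0.159). In the lymphocyte-high arrays the value in WT was -0.33 and the genotype difference after the run was 0.48. The difference in run response was 0.57 in the lymphocyte-high and -0.01 in the lymphocyte-low arrays, against 0.27 over all arrays. The averaged genotype difference was 0.01 (95% interval -0.22 to 0.24). Beside these values, the 13 endothelial markers had array means of 9.98 ± 0.22 in TG run, 9.78 ± 0.20 in TG rest, 9.85 ± 0.18 in WT run and 9.88 ± 0.18 in WT rest (SD, n = 6 each). Their part in the Hdac7 values was not tested.

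**Figure D2:**
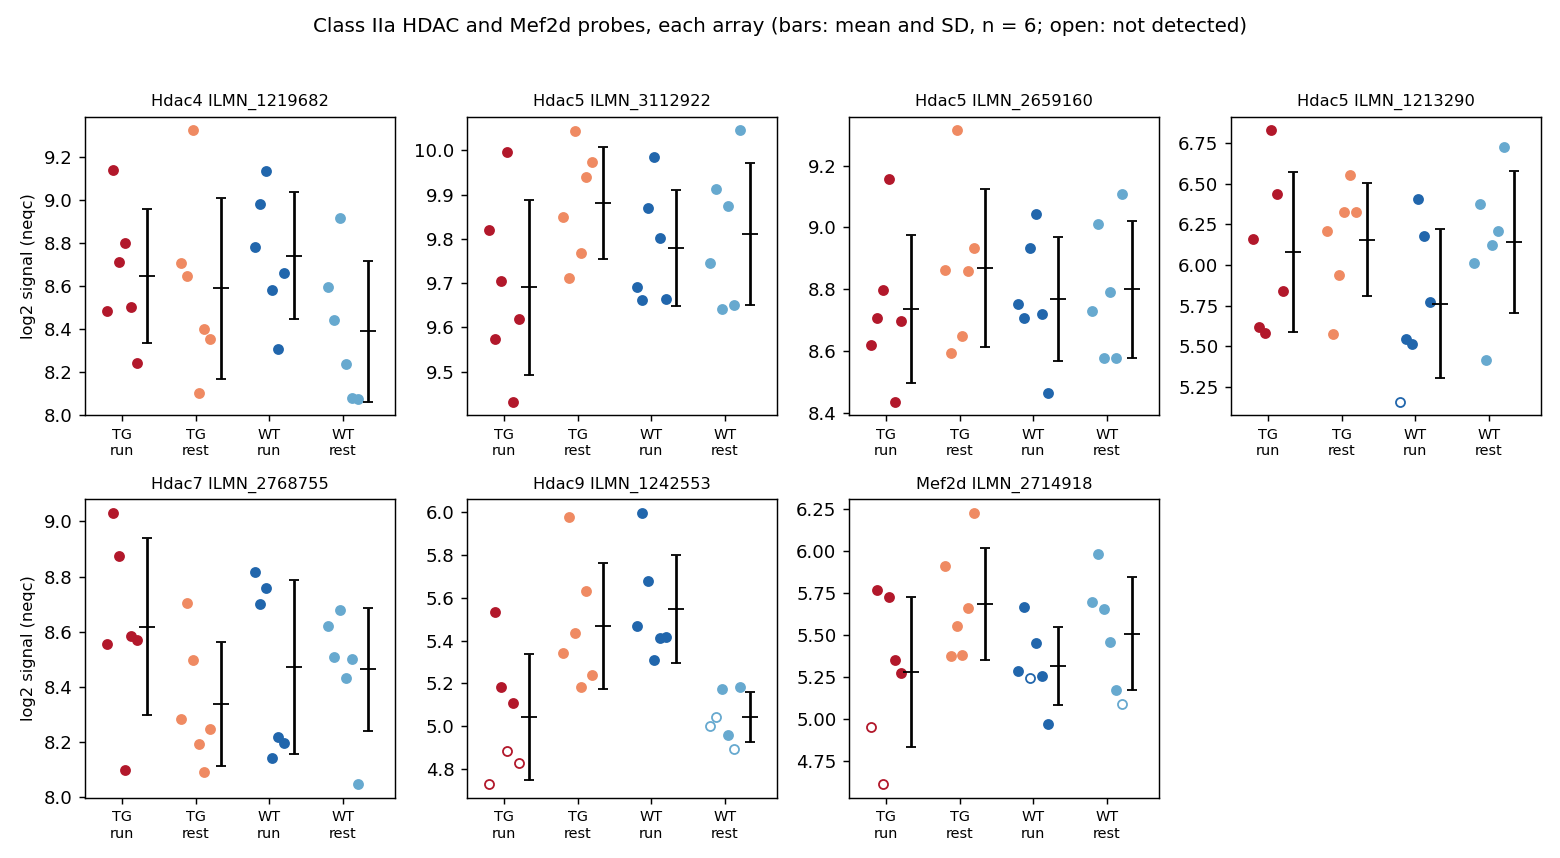
Log2 signal of the kept Hdac4, Hdac5, Hdac7, Hdac9 and Mef2d probes on each array, in TG run, TG rest, WT run and WT rest, with the mean and SD of 6 arrays and open circles for arrays that did not detect the probe. In the Hdac9 panel all WT run arrays lie above all WT rest arrays while TG run overlaps TG rest, and in the other panels all groups overlap.

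Counted over the family, the run moved no member past the threshold. Of the 11 kept probes 0 were called in TG, with 2 at an unadjusted p under 0.05 (Hdac9 and Mef2d), against 1 of 21788 called over the array (0.00459%) and 968 at that unadjusted p. In WT 0 were called and 1 had an unadjusted p under 0.05 (Hdac9), against 0 called over the array (0%) and 451. In the averaged run comparison 0 were called and 1 had an unadjusted p under 0.05 (Mef2d), against 2 called over the array (0.00918%) and 825. The median difference of the 11 probes was -0.10 in TG and 0.10 in WT, beside -0.02 and 0.00 over all kept probes. For the difference in run response 0 were called, 1 had an unadjusted p under 0.05 (Hdac9), and 0 were called over the array (0%), where 495 had an unadjusted p under 0.05.

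The same probes were counted by separation of the arrays, 6 against 6. After the run 1 of the 11, the Mef2c probe ILMN_1220270, had groups that did not overlap, beside 0.193% of all kept probes. At rest it was 0 of the 11, beside 0.257%. For run against rest it was 0 in TG, beside 0.11%, and 1 in WT, the Hdac9 probe, beside 0.0734%. The median genotype difference of the 11 probes was 0.10 at rest and -0.09 after the run.

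**Figure D3:**
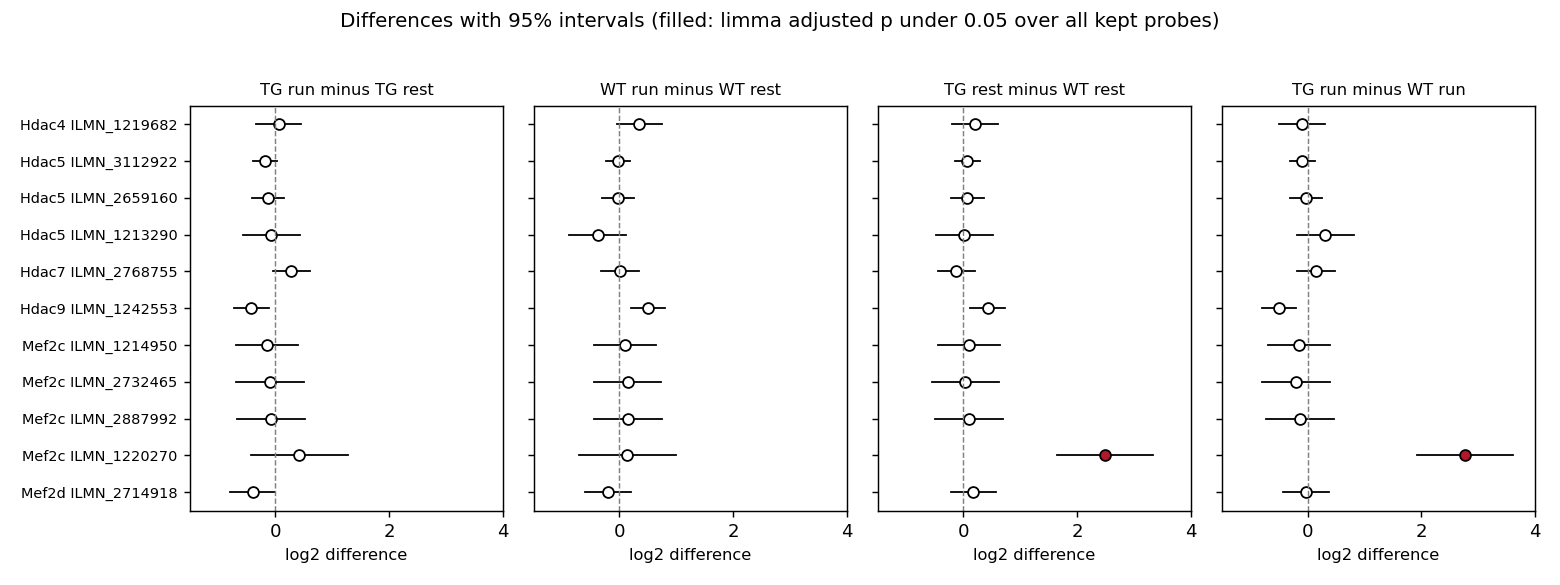
Log2 differences of the 11 kept probes with 95% intervals, in 4 panels for TG run minus TG rest, WT run minus WT rest, TG rest minus WT rest and TG run minus WT run. Filled points passed the limma threshold over all kept probes, and they are the 2 genotype differences of Mef2c ILMN_1220270, at 2.49 and 2.77.

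Within groups, Mef2c, Hdac4 and Hdac7 went up, and 1 Hdac5 probe went down, with the slow-fibre genes of the array. The slow-fibre list, 12 measured genes of oxidative type I and IIa fibres, had array means between 10.45 and 12.76. Its group means were 11.76 ± 0.64 in TG run, 11.77 ± 0.75 in TG rest, 12.00 ± 0.75 in WT run and 11.58 ± 0.76 in WT rest (SD, n = 6 each). Its widest gap set 2 arrays below the other 22, so correlations were taken over the 22. They used deviations from the means of all arrays of each group. For Mef2c ILMN_1214950 Pearson's r was 0.794 (permutation p = 3e-05, adjusted p = 0.000495) and Spearman's rho was 0.755 (permutation p = 9e-05, adjusted p = 0.00148), and r was 0.736 without the 2 arrays farthest from the median. For Hdac4 r was 0.690 (permutation p = 0.00049, adjusted p = 0.00323) and rho was 0.739 (permutation p = 0.00016, adjusted p = 0.00176), and r was 0.674 without the 2 farthest arrays.

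Hdac7 also rose with the slow-fibre mean across those 22 arrays, with r of 0.709 (permutation p = 0.00034, adjusted p = 0.0028) and rho of 0.705 (permutation p = 4e-04, adjusted p = 0.00264), and 0.668 without the 2 farthest arrays. The Hdac5 probe ILMN_1213290 ran the other way, with r of -0.627 (permutation p = 0.00222, adjusted p = 0.0122) and rho of -0.625 (permutation p = 0.00237, adjusted p = 0.013), and -0.656 without the 2 farthest arrays. Hdac9 gave r of 0.493 (permutation p = 0.0197, adjusted p = 0.0929) and rho of 0.514 (permutation p = 0.0158, adjusted p = 0.0579), short of the threshold after adjustment. Mef2d gave 0.122 and the 2 brighter Hdac5 probes -0.157 and 0.196, none of them past the threshold. The genotype-called Mef2c probe ILMN_1220270, which no WT array detected, gave r of 0.438 (permutation p = 0.032, adjusted p = 0.132). Its rho of 0.567 passed the threshold (permutation p = 0.00689, adjusted p = 0.0325). The adjustment was over 33 correlations of members with the 2 marker lists, and the arrays share tissue composition and the same normalisation. The share of all kept probes that follow the slow-fibre mean as closely was not taken. The relation is therefore not shown to be particular to these members.

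The slow-fibre relation was taken again inside each lymphocyte set, an addition made after seeing the data. The deviations were still from the means of all arrays of a group and were not retaken inside a set. Differences between groups inside a set can therefore enter these correlations. In the 13 lymphocyte-low arrays r was 0.780 for Mef2c ILMN_1214950, 0.722 for Hdac4, 0.813 for Hdac7 and -0.793 for Hdac5 ILMN_1213290. In the 11 lymphocyte-high arrays it was 0.813 for Mef2c ILMN_1214950, 0.729 for Hdac4, 0.813 for Hdac7 and -0.873 for Hdac5 ILMN_1213290. These 4 probes thus kept their direction in both sets. Hdac9 gave 0.353 in the low set and 0.766 in the high set.

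**Figure D4:**
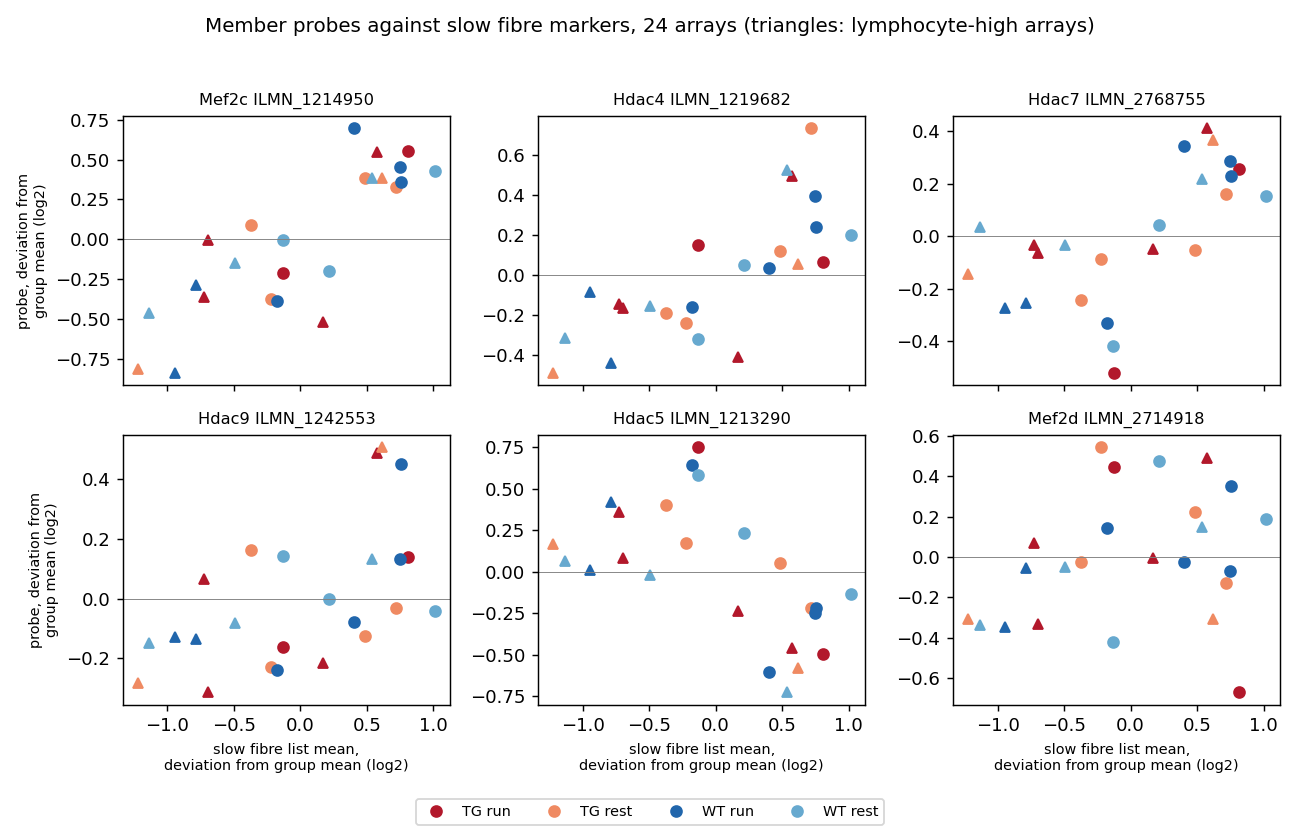
Deviation of 6 member probes from their group mean (vertical, log2) against the deviation of the slow-fibre list mean from its group mean (horizontal, log2), over 24 arrays coloured by group, with triangles for the 11 lymphocyte-high arrays. Mef2c, Hdac4 and Hdac7 go up with the slow-fibre mean, Hdac5 ILMN_1213290 goes down, and Mef2d shows no clear slope.

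The lymphocyte mean itself was followed less clearly, by the same deviations inside each set. In the 13 low arrays r with the 11 probes lay between -0.265 and 0.297, and none passed the threshold. In the 11 high arrays Mef2c ILMN_2887992 gave r of -0.487 (permutation p = 0.13, adjusted p = 0.39) and rho of -0.764 (permutation p = 0.00843, adjusted p = 0.0348), with r of -0.905 without the 2 farthest arrays. Mean signals of ILMN_2659160, an Hdac5 probe, were 8.62 ± 0.11 in the 11 high arrays and 8.94 ± 0.18 in the 13 low arrays (SD), and no test was made of this description.

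Members were set against each other inside each lymphocyte set, with the brightest kept probe of each gene and adjustment over 30 correlations. The deviations were again from the means of all arrays of a group, so differences between groups inside a set can enter. Hdac7 and Mef2c rose and fell together, with r of 0.764 in the 13 low arrays (permutation p = 0.00332, adjusted p = 0.0228; rho 0.830, permutation p = 0.00085, adjusted p = 0.0255). In the 11 high arrays r was 0.857 (permutation p = 0.00097, adjusted p = 0.0228), with rho of 0.745 (permutation p = 0.0111, adjusted p = 0.0666). Without the 2 farthest arrays these values of r were 0.791 and 0.708. Hdac5 ran against Hdac7 in the low arrays, with r of -0.756 (permutation p = 0.0038, adjusted p = 0.0228), but its rho of -0.698 missed the threshold (permutation p = 0.0104, adjusted p = 0.0666). Its r in the high arrays was -0.358 (permutation p = 0.28, adjusted p = 0.382). Hdac5 with Mef2c in the low arrays, at r of -0.691 (permutation p = 0.0104, adjusted p = 0.039), also passed by r and not by rho (-0.725, permutation p = 0.0068, adjusted p = 0.0666). In the high arrays the same held for every remaining pair among Hdac4, Hdac7, Hdac9 and Mef2c, with r between 0.743 and 0.857 (adjusted p between 0.0228 and 0.0443) and rho between 0.591 and 0.818 (adjusted p between 0.0531 and 0.182). Without the 2 farthest arrays r of these pairs lay between 0.489 and 0.692. Mef2d passed the threshold with no other member.

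The genes whose deviations over 24 arrays were most like a member's were taken from 11246 other named genes, by Pearson's r and as a description. For Mef2c they were Tulp4 (0.952), Cmya5 (0.949), a muscle protein of the costamere also called myospryn, and Pkia (0.945), an inhibitor of protein kinase A. For Hdac4 they were Ubr2 (0.937), a ubiquitin ligase, Otud7b (0.897), a deubiquitinase, and Clip1 (0.893), a microtubule end-binding protein. For Hdac7 they were Creb1 (0.941), the cAMP-responsive factor, Anks3 (0.924) and Rasa1 (0.912), a Ras GTPase activator. The Hdac5 probe ILMN_3112922 was closest to Gstm1 (0.859), a glutathione transferase, Adsl (0.854), a purine synthesis enzyme, and Bmp4 (0.853), a growth factor. For Hdac9, with r of 0.773 to 0.779, they were Rasgrp4, Eno2 and Socs5, and for Mef2d Ddost (0.758), Nmnat3 (0.693) and Mia (0.690).

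Genes of the surrounding pathway were taken from lists, each gene by its brightest kept probe, beside 11574 genes in all. None (0) of the 31 measured HDAC kinases and export factors was called in any comparison, and the list's median was -0.01 for the run in TG and 0.02 for the run in WT, each with the other sign in some settings (5 of 15 in TG and 2 of 15 in WT). Its smallest p-values belonged to AMP-activated kinase subunits and a protein kinase D: Prkag3 differed by -0.32 (SE 0.225) and Prkab2 by -0.23 (SE 0.178) with the run, and Prkd1 by -0.23 (SE 0.114) and Prkab1 by 0.13 (SE 0.0761) with genotype. None (0) of the 12 measured other HDACs and corepressors was called either. Hdac11, the class IV deacetylase, differed by -0.32 (SE 0.191) and the corepressor Sin3a by -0.16 (SE 0.0936) with the run. With genotype Tbl1x, a subunit of the NCoR complex, differed by -0.18 (SE 0.124) and the class I deacetylase Hdac2 by -0.05 (SE 0.0547).

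Of 32 measured MEF2 partners and regulators 1 was called lower and 0 higher in TG averaged over exercise states, the Mef2b probe above, and 0 were called with the run. Rcan1, a feedback inhibitor of calcineurin, differed by 0.61 with the run (SE 0.227, limma adjusted p = 0.998) and Myf6, a myogenic factor of mature fibres, by 0.36 (SE 0.130, adjusted p = 0.998). Myod1, the myogenic factor that binds DNA with MEF2, had a genotype difference of -0.78 (SE 0.212, limma adjusted p = 0.235). None of these 3 genes passed the threshold over all probes.

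The MEF2 target genes of muscle, 35 measured, had a median of -0.17 for the run in TG, with 7 of 35 higher, and of 0.11 for the run in WT, with 23 of 35 higher. At rest 31 of 35 were higher in TG than in WT (median 0.16), and after the run 11 of 35 were (median -0.06). Over all genes the medians were -0.02 for the run in TG, 0.01 for the run in WT, 0.01 at rest and -0.01 after the run. Of all genes 46% were higher for the run in TG, 51.7% for the run in WT, 52.8% at rest and 47.9% after the run. The run and genotype values share the same groups, so they are not separate observations. None (0) of the 35 was called in any comparison. Over 15 other settings the median for the run in TG lay between -0.246 and 0.0217 and was above 0 in the lymphocyte-low arrays. That for the run in WT lay between -0.109 and 0.231 and was below 0 in 4 settings, among them those with a slow-fibre covariate and the lymphocyte-high arrays. At rest the median was -0.0461 with the replicate block. Of the 39 genes listed 7 are also among the 13 slow-fibre markers, whose group means stand above.

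Ppargc1a, the coactivator of mitochondrial genes and a MEF2 target, had the smallest run p-value of that list. It differed by 1.12 averaged over genotypes (SE 0.205, 2.17-fold) and was not called (limma adjusted p = 0.107), with 1.03 in TG and 1.21 in WT. Kbtbd13, a sarcomere-linked ubiquitin ligase adaptor, differed by -0.45 with the run (SE 0.153, adjusted p = 0.991). Xirp2, an actin-binding protein of the intercalated disc and Z-disc, had a genotype difference of 0.93 (SE 0.286, adjusted p = 0.48), 1.49 at rest and 0.37 after the run.

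The HDAC4 targets known from denervated muscle, 13 measured, share 2 genes with the MEF2 targets. The list was not split by the direction of HDAC4's effect, so its medians and counts do not read as HDAC4 activity. For the run in TG 1 of 13 was higher (median -0.25), and for the run in WT 9 of 13 were (median 0.08). At rest 11 of 13 were higher in TG (median 0.18), and after the run 1 of 13 was (median -0.05). The shares and medians over all genes are given above with the MEF2 targets. Over 15 other settings the median for the run in TG stayed below 0, between -0.304 and -0.104, while that for the run in WT was below 0 in 4. With the replicate block the median at rest was 0.09. By their brightest probes 0 of 13 were called. Musk, the receptor kinase of the neuromuscular junction, was the 1 gene higher with the run in TG, by 0.91 (SE 0.311, adjusted p = 0.889), and it differed by 0.88 in WT (SE 0.311, adjusted p = 1). Trim63, the muscle ubiquitin ligase MuRF1, differed by -0.48 in TG and 0.05 in WT with the run (SE 0.284 each).

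**Figure D5:**
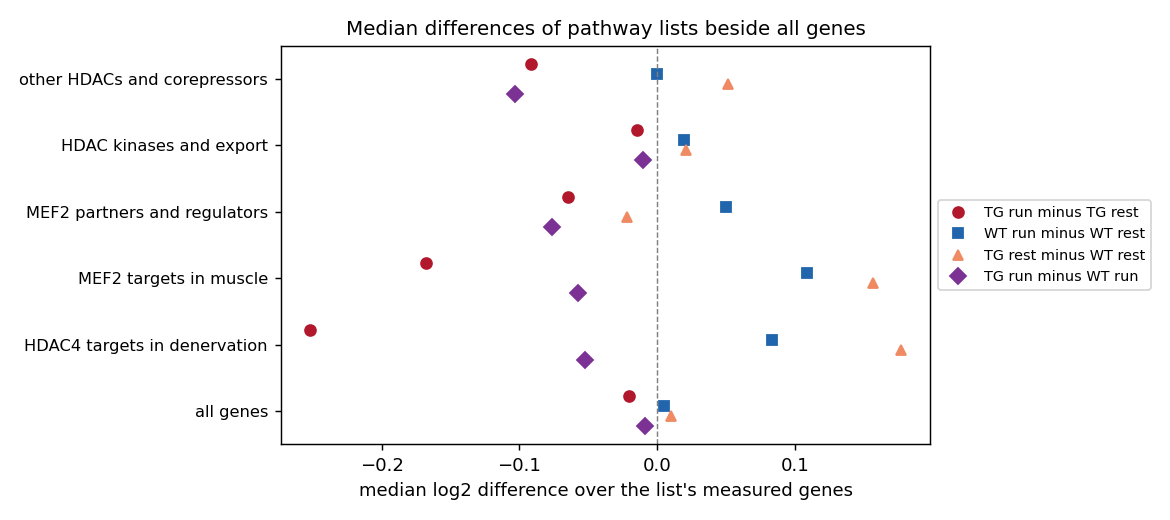
Median log2 difference of each pathway list (rows) over its measured genes, with 1 marker for each of TG run minus TG rest, WT run minus WT rest, TG rest minus WT rest and TG run minus WT run, beside all 11574 genes. The MEF2 and HDAC4 target lists sit below 0 for the run in TG and above 0 for the run in WT and for genotype at rest, and no gene of either list was called by its brightest probe.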

How the data were processed

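For each array the authors deposited linear intensity values by probe, not normalised between arrays, each with a detection p-value, per the file headers. How beads were summarised is not stated in the sources used here. A deposited table of log2 values, normalised by the submitters (R 3.1.1 and limma 3.20.8, per the submitters' processing notes), served as an alternative and differed from the log2 values computed here by at most 0.0269.

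Background correction and quantile normalisation used neqc (offset 16) from limma 3.58.1 and R 4.3.3. Probes with a detection p under 0.05 on at least 6 of 24 arrays were kept, 21788 of 45281. Probe names came from the platform annotation (34885 with 1 symbol, 18 with several, 10378 with none). A linear model of 4 group means was fitted over all kept probes with lmFit and eBayes, and 7 contrasts were tested two-sided with Benjamini-Hochberg adjustment at 0.05. All adjusted p-values of differences are limma's, and all group errors are SDs. Correlations used deviations from the means of all arrays of each group, not retaken inside a set. Their p-values used 100000 permutations across the arrays of a set, two-sided.

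The members, lists and tests were chosen with earlier results of these data known. Named genes were every member probe, the 3 genes most like each member, and any listed gene called. From each list the 2 smallest p-values with the run and the 2 with genotype were added. Mt1 was added as the largest known run response. Of the per-sample columns, 0 were left unused. On simulated data for the averaged genotype contrast, with 21788 probes and 100 changed probes per size, noise was drawn independently for each probe. The fit recovered 42 at log2 0.5 and 93 at log2 1, with 0 wrong signs and 12 false calls. Variation that probes share on the real arrays was not simulated, so these counts do not cover it. Same-numbered arrays at rest deviated together (correlations 0.321, 0.655 and 0.399 for the 3 shared numbers). Both arrays of each such pair also lay in the same lymphocyte set, and the part of composition in these correlations was not tested. Because of the correlations, the block is given beside results with the rest groups whose call it ended or whose value it moved most. In each other pair of groups at least 1 shared number was at or below 0.1.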

Additional observations from a re-analysis of the deposited data

How the results depend on the processing

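Limits: single probes carry the Mef2c genotype difference and the Hdac9 values, and their positions in the transcripts were not analysed here. The Hdac9 probe lay close to background, and no WT array detected the called Mef2c probe. Slide and scan batches were not known, and tissue composition differed between arrays. Precision rests on 6 arrays per group.

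The count of called member probes was 1 in each genotype comparison and became 0 in all 3 when only probes detected on all 24 arrays or the brightest probe per symbol were tested, since neither holds Mef2c ILMN_1220270, and in the lymphocyte-low arrays. It became 0 at rest and after the run in the lymphocyte-high arrays and with the replicate block, and 0 at rest with only the groups of the contrast. With the replicate block the averaged Mef2c difference was 2.71 and still called (adjusted p = 0.016). Over all kept probes, the averaged genotype calls numbered 49, against 8 with the block or in the lymphocyte-high arrays, 15 in the lymphocyte-low arrays and 134 with both covariates. Leaving out 1 array at a time, the counts of calls stayed at 1 in the genotype comparisons and at 0 in the run comparisons and the difference in run response. The averaged Mef2c difference then lay between 2.53 and 2.89, and the difference at rest between 2.30 and 3.00. The Mef2b call ended in the lymphocyte-low (-0.50) and lymphocyte-high arrays (-0.90). Of 2907 member differences under other settings, 18 moved by 1 SD or more and 8, all of the Mef2c probe, lost their call.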
